A study of Gallus gallus with 6 samples.

Results

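Chemokines are small secreted proteins that guide white blood cells. A cell follows the gradient of a ligand by means of receptors on its surface, each of which answers a few ligands. Inflammatory chemokines are made on demand by epithelium, stroma and leukocytes at a site of injury or infection, largely under the control of the transcription factor NF-κB, whereas homeostatic chemokines are made steadily and place lymphocytes and dendritic cells within lymphoid tissue and mucosa. In birds, whose granulocytes are heterophils in place of neutrophils, the mammalian gene for interleukin 8 has a pair of counterparts.

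The genes described here are the rows of the deposited table whose symbol is IL8, IL8L1, CCL4, CCL5, CCL17 or CCL20, taken as inflammatory, or CCL19, CCL21, CXCL12 or CXCL14, taken as homeostatic. All 10 symbols were found, in 11 of 17623 rows, because 2 rows carry the symbol CCL4, and all 11 passed the filter on low counts. They were chosen by symbol with their expression values in these libraries, and so the diet difference, already known. For that reason the diet values of these rows are given as a description, with no test. RNA of the ileum, the last stretch of the small intestine, came from Taiping chickens aged 2 months and labelled male. The control group (CT, 3 libraries) ate a basal diet of corn and soybean. The MP_FOS group (3 libraries) ate the same feed and drank water with 2 mL of probiotics and 1 mL of fructo-oligosaccharide, a fibre that gut bacteria ferment, per litre. Neither the strains of the probiotic nor pooling of birds is stated, and nothing states that each replicate is a separate bird, so p-values measure only the spread between these samples.

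Library totals ran from 11833015 (MP_FOS replicate 3) to 18106651 counts (CT replicate 3), so that 1 count was worth 0.0531 to 0.0843 CPM. CPM are counts scaled to a common library size with edgeR's TMM factors, and serve to compare libraries. FPKM, scaled by the authors to transcript length as well, serve to compare genes. Against the label, 4 libraries held reads of W-linked genes, which only hens carry (HINTW at 1846 to 2804 reads), and CT replicate 2 and MP_FOS replicate 2 held almost none (3 and 0). The diets thus had 1 library without W-linked reads each. Ileal epithelial markers were high in every library, summed at 9215 to 11887 CPM in CT and at 14194, 10253 and 6252 CPM in MP_FOS replicates 1, 2 and 3. MP_FOS replicate 1 was thus above every CT library and MP_FOS replicate 3 below. In edgeR's quasi-likelihood test of MP_FOS against CT, 0 of 13774 genes passed an adjusted p of 0.05 (0%). An unadjusted p under 0.05 was found for 1457 (10.6%). DESeq2 called 104 (0.755%) and limma voom 0.

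IL8 (ENSGALG00000026098), the interleukin 8-like 2 of the file's description, draws heterophils and monocytes. It stood at 1.56, 1.62 and 1.27 CPM in CT replicates 1, 2 and 3 and at 6.99, 15.0 and 15.0 CPM in MP_FOS replicates 1, 2 and 3. Every MP_FOS library was thus far above every CT library, and replicate 1 was the lowest of its group. The counts behind these values are small in CT, 26, 28 and 24, with exact 95% Poisson intervals that reach up to 40.5. The lowest MP_FOS count, 117, has an interval that starts at 96.8. These intervals cover counting error only, not the spread between samples, and are no test of the diet difference. The fitted log2 fold change was 3.05 ± 0.36 (SE), an 8.26-fold difference.

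IL8L1 (ENSGALG00000011668), the paralogue that also draws heterophils, lies directly next to IL8 in the gene order of the RefSeq assembly GRCg7b. Its values were 1.32, 1.51 and 0.637 CPM in CT and 1.61, 7.48 and 9.44 CPM in MP_FOS. Here MP_FOS replicate 1 was hardly above CT, with 27 reads against 26 in CT replicate 2, and the other 2 MP_FOS libraries were high. The log2 fold change of IL8L1 was 2.41 ± 0.67 (SE). Within a library, IL8 had 1.26 to 2.38 times the FPKM of IL8L1 in CT, 2.37 and 1.87 times in MP_FOS replicates 2 and 3, and 5.11 times in MP_FOS replicate 1. IL8L1 was thus low beside IL8 in that library.

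Both rows named CCL4 are neighbours of each other and of CCL5 in that assembly. In mammals CCL4 draws monocytes and T cells. How the authors' counting treated reads of like copies is not given, so each row is uncertain. The counts of both rows were whole numbers in all 6 libraries, which gives no sign of reads divided between them. The row ENSGALG00000034478, which RefSeq also names CCL4, stood at 3.72, 4.41 and 7.12 CPM in CT and at 2.15, 22.9 and 24.9 CPM in MP_FOS. Its groups overlapped, because MP_FOS replicate 1 was the lowest of all 6 libraries while the other 2 were more than 3 times the highest CT library. The row ENSGALG00000032717 (LOC395551 in RefSeq, with MIP-1beta among its synonyms) varied less, at 9.01, 6.03 and 10.1 CPM in CT and 8.12, 16.7 and 13.7 CPM in MP_FOS. Their log2 fold changes were 1.70 ± 0.77 and 0.61 ± 0.32 (SE). The first was 1.03 on log2(FPKM + 1), and the second was 0.37 without MP_FOS replicate 2, 0.41 on log2(FPKM + 1) and 0.18 ± 0.31 without both libraries that lack W-linked reads. In LOC395551 the ratio of count to FPKM changed between libraries, from an implied length of 478 to 641 bases, so its FPKM and CPM need not move together.

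CCL5, a lymphocyte attractant of the same cluster, was at 3.06, 4.35 and 7.07 CPM in CT and at 6.15, 4.04 and 12.3 CPM in MP_FOS. The groups overlapped, and its log2 fold change was 0.63 ± 0.48 (SE). Leaving out MP_FOS replicate 3 gave 0.08 and leaving out CT replicate 1 gave 0.39, but it was 1.01 without CT replicate 3. CCL17, a ligand of CCR4 that draws T cells in mammals, was low but even, with 1.32, 1.28 and 1.65 CPM in CT and 3.10, 3.33 and 2.95 CPM in MP_FOS. All MP_FOS libraries were above CT and MP_FOS replicate 1 was like the other 2, and its log2 fold change was 1.14 ± 0.28 (SE). CCL20, the ligand of CCR6 and an epithelial product that draws lymphocytes and dendritic cells, had 9.73, 7.94 and 9.19 CPM in CT and 13.0, 12.7 and 5.65 CPM in MP_FOS. MP_FOS replicate 3, the library with the highest CCL5, had the lowest CCL20, and the log2 fold change was 0.23 ± 0.32 (SE). It was 0.52 without that library, 0.04 without MP_FOS replicate 1, 0.06 without MP_FOS replicate 2, 0.15 without CT replicate 2 and −0.01 without both libraries that lack W-linked reads.

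**Figure D1:**
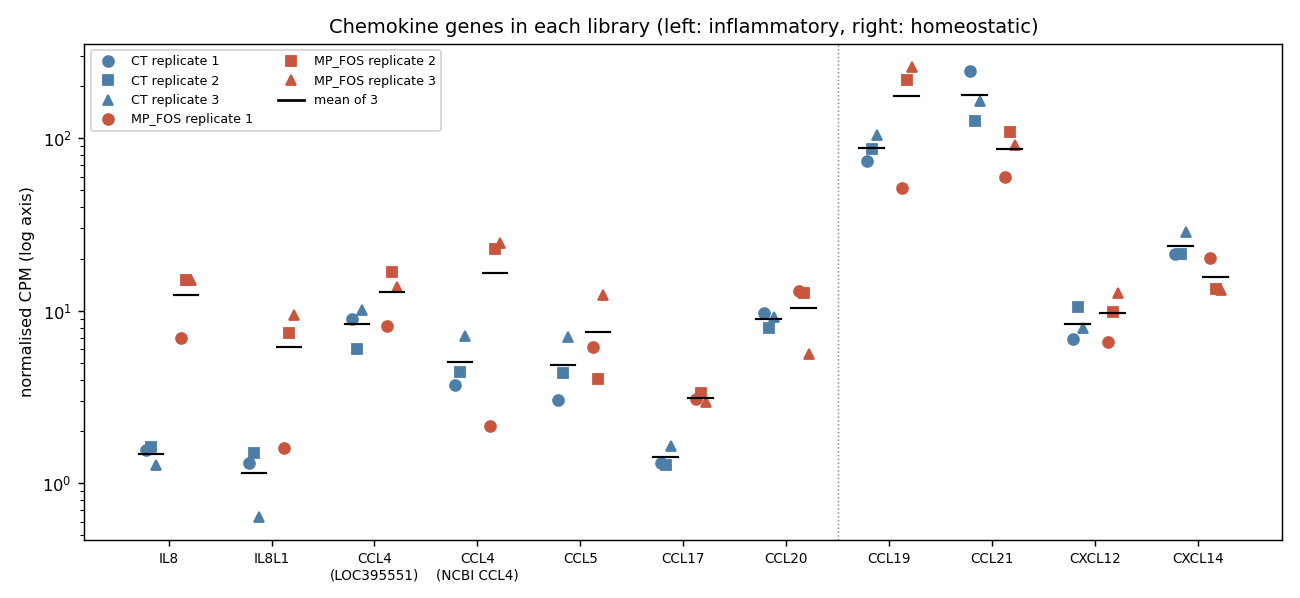
Normalised CPM on a log axis for the 11 chemokine rows in each library; blue marks are CT, red marks MP_FOS, marker shape gives the replicate and the black line the mean of 3. The groups do not overlap in IL8, IL8L1 and CCL17 (MP_FOS higher) or in CCL21 and CXCL14 (MP_FOS lower), and MP_FOS replicate 1 (red circles) is the lowest of all 6 libraries in the second CCL4 row, CCL19, CCL21 and CXCL12.

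CCL19 and CCL21, the ligands of CCR7 that bring lymphocytes and mature dendritic cells into lymphoid tissue, were the most abundant members per length. The file gives the symbol CCL21 to ENSGALG00000046192 but describes that gene as a CCL26-like chemokine, and RefSeq leaves it unnamed, next to CCL19 among the protein-coding genes of the Z chromosome. CCL19 stood at 42.2, 47.7 and 60.1 FPKM in CT and at 27.5, 115 and 144 FPKM in MP_FOS. MP_FOS replicates 2 and 3 were above every CT library, and MP_FOS replicate 1 was below all of them. CCL21 went the other way, with 147, 72.2 and 98.6 FPKM in CT and 33.2, 59.7 and 52.7 FPKM in MP_FOS, where every MP_FOS library was below every CT library. In CPM the log2 fold changes were 1.00 ± 0.52 for CCL19 and −1.05 ± 0.30 for CCL21 (SE). That of CCL19 was 0.61 without MP_FOS replicate 3 and 0.63 on log2(FPKM + 1).

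The balance of CCL19 and the row named CCL21, a CCR7 ligand only if that symbol is right, differed between libraries. CCL19 had 0.288, 0.66 and 0.61 times the FPKM of CCL21 in CT replicates 1, 2 and 3, and 0.828, 1.92 and 2.74 times in MP_FOS. CCL21 was thus the larger of the pair in 3 CT libraries and in MP_FOS replicate 1, and CCL19 in MP_FOS replicates 2 and 3. Their sum did not separate the diets, at 189, 120 and 159 FPKM in CT and 60.6, 174 and 197 FPKM in MP_FOS, where replicate 1 was the lowest library of the series. Both genes are Z-linked, and cocks carry an additional Z. Between the libraries without W-linked reads, MP_FOS replicate 2 against CT replicate 2, the log2 differences were 1.33 for CCL19 and −0.21 for CCL21. In the other 4 libraries the fitted values were 0.80 ± 0.70 and −1.44 ± 0.29 (SE).

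**Figure D2:**
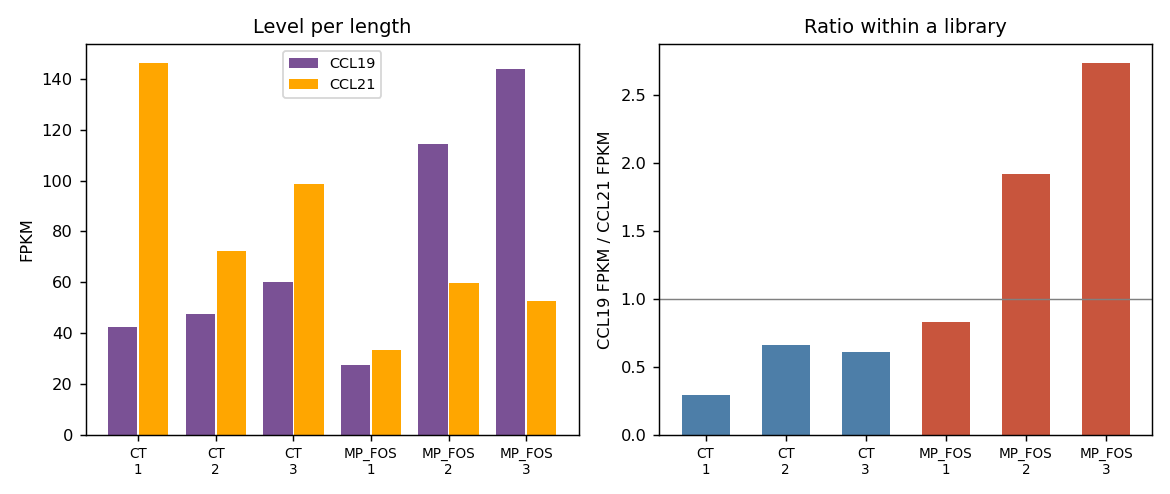
Left, FPKM of CCL19 and CCL21 in each library (bars start at 0); right, the ratio of CCL19 to CCL21 FPKM in each library, with a line at 1. The ratio is 0.288 to 0.66 in CT and 0.828 to 2.74 in MP_FOS.

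CXCL12, which holds CXCR4-bearing cells in bone marrow and mucosa, was at 6.91, 10.5 and 7.92 CPM in CT and 6.63, 9.80 and 12.7 CPM in MP_FOS. The groups overlapped, with MP_FOS replicate 1 below and replicate 3 above every CT library. Its log2 fold change was 0.20 ± 0.29 (SE). Leaving out MP_FOS replicate 3 gave −0.04, and leaving out CT replicate 1 or using log2(FPKM + 1) gave 0.08, but it was 0.38 without CT replicate 2 and 0.41 without MP_FOS replicate 1. CXCL14, which epithelium makes in the resting state, had 21.2, 21.3 and 28.7 CPM in CT and 20.4, 13.4 and 13.1 CPM in MP_FOS. All MP_FOS libraries were below CT, replicate 1 only just, and the log2 fold change was −0.60 ± 0.23 (SE).

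Over the 11 rows, 3 had MP_FOS above CT without overlap (IL8, IL8L1 and CCL17) and 2 had it below (CCL21 and CXCL14), where 8.2% and 8.49% of all tested genes did so. No reading is drawn from these counts, since the diet contrast was used to propose the genes. Log2 fold changes were above 0 in 7 of 7 inflammatory rows (median 1.14) and in 2 of 4 homeostatic rows (median −0.20), against 51.5% of all tested genes (median 0.01). MP_FOS replicates 2 and 3 were both above the CT range in 6 rows (IL8, IL8L1, both CCL4 rows, CCL17 and CCL19) and both below it in 2 (CCL21 and CXCL14). CCL5, CCL20 and CXCL12 did neither. In CCL19, MP_FOS replicate 1 lay below the CT range, so its groups overlapped.

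Per library, the mean over a class of log2 CPM, centred on the 6 libraries, was taken as its score. The inflammatory score was −0.66, −0.66 and −0.48 in CT and −0.09, 0.92 and 0.98 in MP_FOS. MP_FOS replicate 1 stood between the CT libraries and its own group. The homeostatic score was 0.06, 0.03 and 0.20 in CT and −0.61, 0.12 and 0.21 in MP_FOS. Replicate 1 was again apart, and the scores of the others lay with CT. In MP_FOS replicates 2 and 3 this mean joined opposite shifts of its members. Centred log2 CPM there was 0.96 and 1.22 for CCL19 and 0.15 and 0.52 for CXCL12. It was −0.14 and −0.40 for CCL21 and −0.50 and −0.52 for CXCL14. Nearness to CT in the score is thus not nearness of its members. The inflammatory minus the homeostatic score was −0.72, −0.68 and −0.68 in CT and 0.52, 0.80 and 0.77 in MP_FOS. Its means were −0.70 ± 0.02 and 0.70 ± 0.16 (SD, n = 3 each), a difference of 1.39. It was 1.48 between the libraries that lack W-linked reads (1 pair) and 1.35 between the other 4. Each class alone spread more. MP_FOS minus CT was 1.1995 for the inflammatory score (pooled SD 0.43) and −0.19 for the homeostatic score (pooled SD 0.32). The pooled SD of the difference score was 0.11. MP_FOS replicate 1 was the lowest of its group in both classes, and the subtraction removes part of that shared shift.

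**Figure D3:**
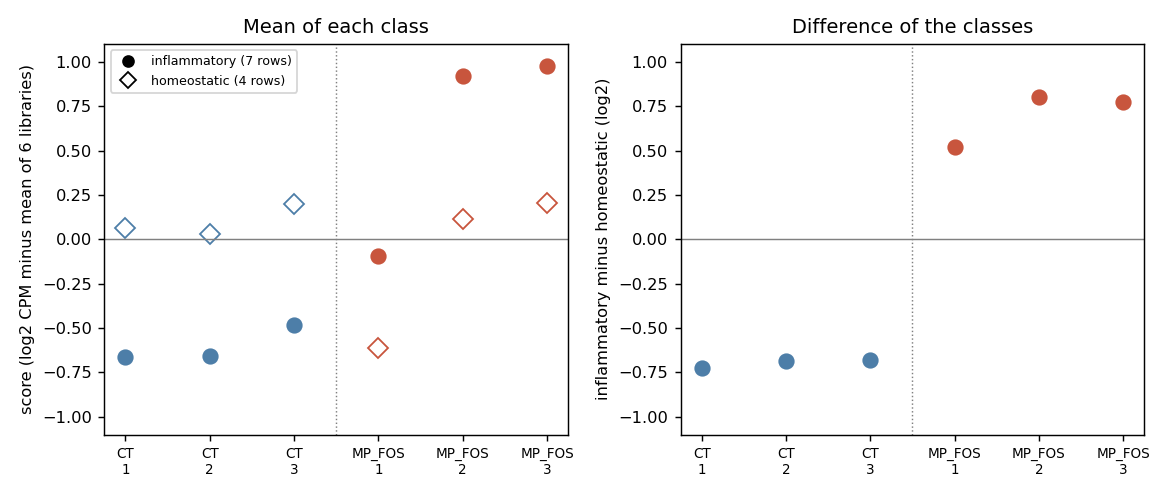
Left, mean centred log2 CPM of the 7 inflammatory rows (filled circles) and of the 4 homeostatic rows (open diamonds) in each library; right, the first minus the second. Blue is CT and red MP_FOS; MP_FOS replicate 1 has the lowest scores of the MP_FOS group in both classes (−0.09, above CT, and −0.61, below CT) and a difference of 0.52, nearer to the other MP_FOS libraries than to CT.

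In level per length, the inflammatory rows made up 19.7, 23.0 and 25.8% of the summed FPKM of all 11 rows in CT and 43.5, 35.0 and 36.5% in MP_FOS. Replicate 1 had the highest share of the MP_FOS libraries with the lowest sums there, 60.6 FPKM inflammatory and 78.8 FPKM homeostatic. MP_FOS replicates 2 and 3 had 102 and 125 FPKM of inflammatory chemokine transcripts against 42.4 to 64.5 FPKM in CT.

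The order of levels within CT ran from CCL21 (106 ± 37.7 FPKM, SD, n = 3) and CCL19 (50.0 ± 9.17 FPKM), whose ranges were apart from each other and from the rest, to IL8 (1.22 ± 0.133 FPKM) and IL8L1 (0.807 ± 0.312 FPKM). CCL4 (LOC395551), CXCL14 and CCL5 came next to CCL21 and CCL19 at 14.9 to 15.1 FPKM, within each other's spread. CCL20 (11.0 FPKM) overlapped CCL5 above it but not CXCL12 below it, and CXCL12 (7.91 FPKM) overlapped the other CCL4 row (6.90 FPKM). CCL17 (2.69 FPKM) was apart from both its neighbours. In MP_FOS the order was CCL19, CCL21, CCL5, both CCL4 rows, CCL20, IL8, CXCL14, CXCL12, CCL17 and IL8L1. There the ranges of neighbours overlapped, except that CXCL12 (8.60 FPKM) lay wholly above CCL17 (5.65 FPKM). IL8 exceeded 29.8% of all listed genes in mean FPKM in CT and 58.1% in MP_FOS, and CCL21 96.0% and 89.4%.

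Receptors were taken from a list of 19, of which 17 were matched and tested. This list and those of ligands, NF-κB genes and inducing cytokines were chosen with earlier results of these data known. Their p-values and counts are therefore no independent support for the member values. None was called by edgeR (0 higher and 0 lower) or DESeq2, 1 had an unadjusted p under 0.05, and 8 were higher and 9 lower (median log2 fold change −0.16). Over all tested genes 10.6% had an unadjusted p under 0.05 and 51.5% were higher (median 0.01). CXCR5, by which B cells enter follicles, had 9.55, 4.23 and 6.64 CPM in CT and 2.51, 2.26 and 3.29 CPM in MP_FOS, without overlap. Its log2 fold change was −1.35 ± 0.35 (SE, edgeR adjusted p = 0.445, BH over all genes). CCR9 was higher without overlap, at 4.14, 4.23 and 3.88 CPM in CT and 5.08, 5.11 and 4.30 CPM in MP_FOS (log2 fold change 0.24 ± 0.22; edgeR adjusted p = 0.713). Of the 17 receptors, 1 was higher and 1 lower without overlap, against 8.2% and 8.49% of all tested genes. CCR6, the receptor of CCL20, averaged 12.8 ± 2.47 against 9.21 ± 1.83 CPM (SD; log2 fold change −0.48 ± 0.23; edgeR adjusted p = 0.511). The following receptors were named because they pair with a member. CCR7, which answers CCL19 and CCL21, averaged 66.7 ± 14.4 CPM in CT and 53.9 ± 10.5 CPM in MP_FOS. CXCR1, which answers IL8, was low at 1.70 ± 0.234 and 2.13 ± 0.657 CPM. CCR4 averaged 11.0 ± 4.01 and 9.42 ± 4.98 CPM, and CXCR4 22.4 ± 2.74 and 23.4 ± 10.1 CPM. In each of these 4 the groups overlapped and edgeR's adjusted p was 0.614 or higher.

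Of the other chemokine ligands listed, 10 of 19 symbols were matched and 9 tested. EdgeR called 0, 3 had an unadjusted p under 0.05, all of higher mean, and DESeq2 called 1, CCL26 (0.755% of all tested genes). An unadjusted p under 0.05, in either direction, was found for 10.6% of all tested genes. CCL26 (ENSGALG00000014585), named through its NCBI gene, was the most abundant chemokine row of those listed in MP_FOS, with 133, 43.5 and 103 FPKM in CT and 182, 375 and 380 FPKM in MP_FOS. All MP_FOS libraries were above CT, and its log2 fold change was 1.83 ± 0.44 (SE; edgeR adjusted p = 0.445, DESeq2 adjusted p = 0.00317). CCLI7, a neighbour of CCL26 but for an unnamed gene, had 2.34, 2.61 and 3.13 CPM in CT and 3.05, 8.73 and 9.95 CPM in MP_FOS (log2 fold change 1.42 ± 0.44; edgeR adjusted p = 0.448). MP_FOS replicate 1 lay within CT here. Counts of CCLI7 were in part not whole (38.74 in CT replicate 1 and 147.04 in MP_FOS replicate 2). Its reads may thus have been shared with other rows. Without that library edgeR called 1.59% of the genes tested, CCLI7 among them (adjusted p = 0.0328). With any other single library left out, edgeR's adjusted p for CCLI7 was 0.596 or higher. CXCL13 and its relatives CXCL13L2 and CXCL13L3, which guide B cells to follicles, had log2 fold changes of −0.49 ± 0.52, −0.64 ± 0.64 and −0.19 ± 0.72 (SE), none of them past its test.

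NF-κB genes were listed as the machinery that switches inflammatory chemokines on, also with earlier results of these data known. Of 14 tested, edgeR called 0, 4 had an unadjusted p under 0.05, DESeq2 called 1, and 11 were of higher mean (median log2 fold change 0.20). Over all tested genes the last 3 shares were 10.6%, 0.755% and 51.5% (median 0.01). NFKBIZ, an inducible nuclear partner of NF-κB, stood at 55.3, 50.1 and 59.8 CPM in CT and at 76.2, 166 and 160 CPM in MP_FOS, with every MP_FOS library above CT. Its log2 fold change was 1.28 ± 0.29 (SE; edgeR adjusted p = 0.445, DESeq2 adjusted p = 0.00615). Without MP_FOS replicate 1 edgeR called NFKBIZ (adjusted p = 0.0173), in a fit that called 1.59% of the genes tested. With any other single library left out, edgeR's adjusted p for NFKBIZ was 0.596 or higher. NFKBIA, the inhibitor that NF-κB itself induces, averaged 109 ± 4.98 and 147 ± 19.0 CPM, also without overlap (log2 fold change 0.43 ± 0.14; edgeR adjusted p = 0.448). The subunits RELA, REL and NFKB1 had log2 fold changes of 0.22 ± 0.18, −0.01 ± 0.11 and 0.20 ± 0.14 (SE) and overlapped between diets. NFKB2 overlapped too (0.33 ± 0.18). NFKBIE (0.54 ± 0.19, edgeR adjusted p = 0.456) and MYD88 (0.95 ± 0.32, edgeR adjusted p = 0.455) were higher in MP_FOS without overlap in CPM. Counts of NFKBIE were not whole numbers (913.75 in CT replicate 1), so reads may have been shared with other rows. For MYD88 the gap was narrow, with MP_FOS replicate 1 at 133 CPM and CT replicate 2 at 128 CPM. In FPKM its groups overlapped, with MP_FOS replicate 1 at 29.59 and CT at 29.15 to 30.23. Of the 14 genes, 4 were higher without overlap in CPM and 0 lower, against 8.2% and 8.49% of all tested genes. The mean was lower in 3, among them TNIP1 (log2 fold change −0.33 ± 0.24; edgeR adjusted p = 0.641). TNIP1 had 521, 608 and 509 CPM in CT and 580, 311 and 411 CPM in MP_FOS. Its groups overlapped through MP_FOS replicate 1, while MP_FOS replicates 2 and 3 were below every CT library.

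Cytokines that induce chemokines and their receptors gave 0 calls in edgeR and DESeq2 among 11 tested, with 4 of higher mean at an unadjusted p under 0.05 and a median log2 fold change of 0.28. Such a p, in either direction, was found for 10.6% of all tested genes (median log2 fold change 0.01). TNFSF15, a TNF-family ligand, had 9.85, 9.39 and 13.4 CPM in CT and 11.0, 34.0 and 43.0 CPM in MP_FOS (log2 fold change 1.42 ± 0.46; edgeR adjusted p = 0.448). MP_FOS replicate 1 was again within CT. Without it edgeR called the gene (adjusted p = 0.0286), in a fit that called 1.59% of the genes tested. With any other single library left out, edgeR's adjusted p for TNFSF15 was 0.596 or higher. LITAF, which binds the promoter of TNF in human cells, averaged 103 ± 19.5 and 172 ± 47.8 CPM (log2 fold change 0.75 ± 0.24; edgeR adjusted p = 0.448). IL1B had 1.14, 1.33 and 1.33 CPM in CT and 1.43, 5.05 and 3.20 CPM in MP_FOS, without overlap in CPM. The gap was narrow, with 24 reads in MP_FOS replicate 1 against 23 and 25 in CT replicates 2 and 3. The log2 fold change of IL1B was 1.34 ± 0.47 (SE; edgeR adjusted p = 0.464). IL1R1 was lower without overlap (−0.61 ± 0.27; edgeR adjusted p = 0.476). Of the 11 tested, 1 was higher (IL1B, by that narrow gap) and 1 lower without overlap, against 8.2% and 8.49% of all tested genes. IL6, IL17A and IL17F were too low to test, at means of 0.605 CPM or less in either diet.

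**Figure D4:**
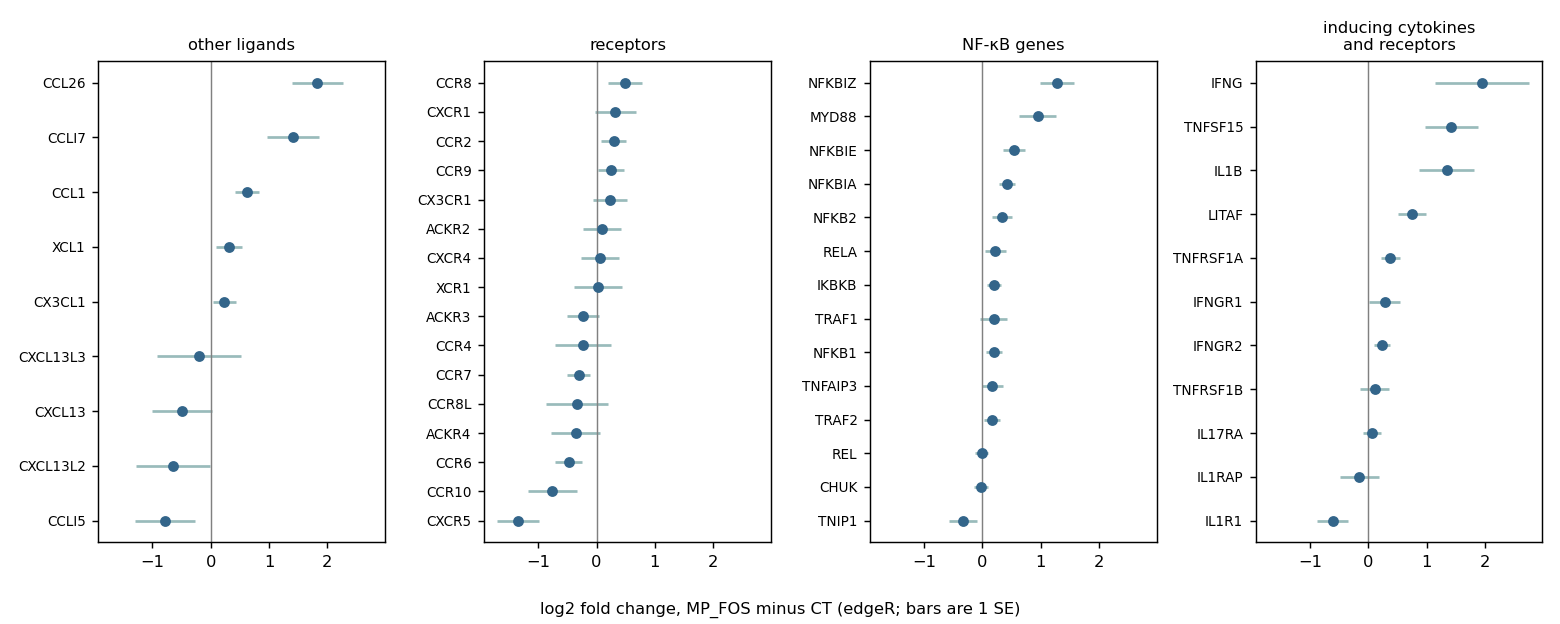
EdgeR log2 fold change of MP_FOS minus CT with 1 SE for the tested genes of the 4 lists (9 other ligands, 16 of the 17 receptors, 14 NF-κB genes, 11 inducing cytokines and receptors). The highest of the ligands is CCL26 (1.83) and the lowest of the receptors CXCR5 (−1.35); no gene shown passed edgeR's adjusted p of 0.05.

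Likeness of pattern was measured as the root-mean-square distance of centred log2 CPM over the 6 libraries, among 11595 genes with a symbol and a mean of at least 1 CPM. Nearest to IL8 were IL22, a cytokine of epithelial defence (0.584), NPFFR1, a neuropeptide receptor (0.586), NOXO1, an organiser of an epithelial NADPH oxidase (0.591), SOCS3, a feedback inhibitor of cytokine signals (0.591), and SKOR1 (0.624), and IL8L1 came next at rank 6 (0.634). SKOR1 had 0.18, 0.058 and 0.212 CPM in CT and 1.43, 4.93 and 1.43 CPM in MP_FOS. It met the mean of 1 CPM only through MP_FOS, where it was high, so nothing is drawn from its rank. IL8 itself lay 1.49 from its own mean. IL22 had 1.44, 2.84 and 2.97 CPM in CT and 5.13, 29.0 and 15.8 CPM in MP_FOS, with replicate 1 intermediate as in IL8. Nearest to CCL21 were PLD5 (0.186), the actin-capping TMOD2 (0.19), the cadherin relative FAT3 (0.197), the B cell protein CD72 (0.21) and the neurotrophic factor receptor GFRA1 (0.216). TMOD2 had 2.28, 1.28 and 1.75 CPM in CT and 0.776, 1.19 and 1.01 CPM in MP_FOS. It met the mean of 1 CPM by way of CT, where it was higher, so nothing is drawn from its rank either. Among members, CCL19 lay closer to ENSGALG00000034478 (0.469) than to CCL21 (1.08), and CCL21 closest to CXCL14 (0.603). CCL21 itself lay 0.643 from its own mean, so CXCL14, at rank 2335 of 11595, was hardly nearer than a flat pattern.

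Cell type markers are given beside these values. In bulk tissue fewer cells of a type and less RNA per cell cannot be told apart. Beside IL8, heterophil markers summed to 56.2 to 92.6 CPM in CT and 81.5 to 96.2 CPM in MP_FOS, overlapping, with 4 of 4 tested markers of higher mean, CXCR1 among them (median log2 fold change 0.65). Their granule genes CATHL1, CATHL2 and CATHL3 were near 0, at means of 0.376 CPM or less. Beside CCL21 and CXCR5, B and plasma cell markers were lower in 5 of 5 tested (with CXCR5 itself on the list, median −0.80), while their sum, most of it JCHAIN, overlapped (872 to 1505 against 886 to 1423 CPM). Lymphatic vessel markers were lower in 4 of 4 (median −0.23), with sums of 109 to 147 and 89.7 to 125 CPM. Fibroblast markers were lower in 5 of 6 (median −0.38) and blood vessel markers in 6 of 6 (median −0.48), and the sums of both did not overlap between diets (1555 to 1622 against 1023 to 1455 CPM, and 580 to 595 against 359 to 508 CPM). T cell markers were higher in 3 of 9 tested rows (median −0.02), with overlapping sums of 1020 to 1128 against 864 to 1189 CPM. Macrophage and dendritic cell markers were higher in 6 of 10 (median 0.07), with overlapping sums of 470 to 669 against 595 to 660 CPM. Epithelial markers were higher in 7 of 10 rows (median 0.18). Over all tested genes 51.5% were higher (median 0.01). Taken singly, 8.2% of them were higher and 8.49% lower without overlap. The part of these cell types in the chemokine values was not tested.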

How the data were processed

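The deposited table holds, per the file headers, expected counts (7.98% of values not whole) and FPKM per gene for the 6 libraries, both made by the authors. Tools named in the submitters' processing notes, with no role, are HISAT2, Bowtie2, StringTie 1.3.1, DESeq2 and fastp 0.18.0. Build, strand setting and counting method: not given in the sources used here. Therefore no coordinates are printed, and gene neighbours are those of RefSeq's GRCg7b. Counts were rounded and fitted in R 4.3.3 with edgeR 4.0.16 (filterByExpr, TMM, quasi-likelihood F test, two-sided, Benjamini-Hochberg over 13774 genes). Standard errors (SE) of log2 fold changes were derived from F. Scores used log2 CPM with a prior count of 2. DESeq2 1.42.0, limma 3.58.1, other normalizations, filters, log2 FPKM and left-out libraries were alternatives. The code was tested on simulated data.

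The members and lists were chosen with earlier results of these data known. Named genes were all members, every called member of a pathway list or otherwise the 2 with the smallest p, and the 5 genes nearest in pattern to IL8 and to CCL21. Other genes were named because they pair with a member or mark a cell type, or after their values were seen. The latter were CCR9, CXCL13 and its relatives, RELA, REL, NFKB1, NFKB2, NFKBIE, MYD88, TNIP1, IL1B, IL1R1, IL6, IL17A and IL17F. The values of 1 listed receptor are not reported here. List symbols absent from the file were matched through the NCBI gene number in its descriptions.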

Additional observations from a re-analysis of the deposited data

How the results depend on the processing

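With 1 library left out, the count of genes called by edgeR ran from 0 to 223, the latter without MP_FOS replicate 1 (1.59% of 14002 tested). It was 104 (0.755%) with DESeq2 and 1 without both libraries that lack W-linked reads. Calls ran from 0 to 1 among other ligands (9 tested in the main fit). Among NF-κB genes (14 tested) they ran from 0 to 2, NFKBIZ and MYD88 without MP_FOS replicate 1. Among inducing cytokines (11 tested) they ran from 0 to 1, and DESeq2 gave 1 ligand and 1 NF-κB gene. In these genes MP_FOS replicate 1 lay closer to CT than the other MP_FOS libraries did. The cause was not tested. No receptor was called under any of the 17 alternatives. The inflammatory minus homeostatic difference ran from 1.34 to 1.48 with 1 library left out. It was 1.16 on log2(FPKM + 1), 1.11 without IL8, 1.63 without CCL17 and CCL20, and 1.69 without CCL19, the last chosen after seeing the data. The inflammatory difference alone ran from 1.01 to 1.54 with 1 library left out. It was 0.92 without IL8 and 0.91 on log2(FPKM + 1). The homeostatic difference alone, −0.19, ran from −0.34 to 0.06 with 1 library left out, above 0 without MP_FOS replicate 1, and was −0.49 without CCL19 and −0.33 without both libraries that lack W-linked reads. With the replicate number as a block edgeR called 0 genes. The inflammatory minus homeostatic difference stays at 1.39 there by design, since balanced blocks cannot change a difference of group means. Same-numbered libraries deviated together with correlations of 0.02, 0.28 and 0.16, and CT replicate 1 correlated best with MP_FOS replicate 3 (0.12), so the numbers were not taken as pairs. On log2(FPKM + 1) the log2 fold changes of IL8, IL8L1 and CCL17 were 2.20, 1.33 and 0.85, since the pseudocount compresses low values. Depth limits IL8, IL8L1 and CCL17 in CT, with 12 to 31 counts per library. It also limits IL8L1 in MP_FOS replicate 1 (27 counts) and CCL17 in MP_FOS (35 to 56 counts).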

Other observations

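Rows annotated with chemokine activity in the file's gene ontology terms, other than the members, numbered 14, of which 12 were tested, 8 of higher and 4 of lower mean (median log2 fold change 0.28); this set was chosen after seeing the data. Among them, CCLI5, CCL1, CCL26, CCLI7 and CCAH221 lie in one run of genes in GRCg7b, with unnamed genes between. CCL1 stood at 10.8, 11.4 and 11.5 CPM in CT and 14.6, 15.1 and 22.3 CPM in MP_FOS, and CCAH221 at 0.541, 0.406 and 1.49 CPM in CT and 0.358, 6.83 and 2.19 CPM in MP_FOS. CCLI5, at the end of the run, was the one with the lower mean in MP_FOS (0.661, 2.38 and 1.91 against 1.19, 0.891 and 0.759 CPM). The gene directly after IL8 in that order, LOC422654, a CXCL1-like chemokine by its description, had 1, 2 and 1 reads in CT and 1, 11 and 4 in MP_FOS, too few to test.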
